A study of Mus musculus with 6 samples.

Results

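BMP signalling genes were followed here in the developing mouse lung, as 10 members taken by name out of the 31053 genes counted. The members were the ligands Bmp2, Bmp4 and Bmp6, the receptors Bmpr2, Acvrl1 and Eng, the inhibitory SMADs Smad6 and Smad7, and the transcriptional targets Id1 and Id3, and all 10 were in every count matrix. The list holds genes of hereditary pulmonary arterial disease, among them Bmpr2, Acvrl1 and Eng. The rule used names alone, though the list was drawn up with earlier results of these data known.

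The study recorded single-cell transcriptomes to ask how the arterial endothelium of the lung is patterned and what loss of the chemokine Cxcl12 does to the lung. There were 6 libraries, 1 for each condition. Of these, 4 held cells sorted for the Cxcl12 reporter from lungs of genotype Cxcl12DsRed/+, before birth at E13.5, E15.5 or E18.5 and after birth at P8, and 2 held whole E18.5 lungs labelled Cxcl12DsRed/+ (control) and Cxcl12DsRed/DsRed (null). Per the study's text all 6 carried DsRed knocked into at least 1 allele of Cxcl12. Sorted cells were, per the study's methods, positive for DsRed and the endothelial protein CD31, without the epithelial protein EpCAM or the leukocyte protein CD45, and came from several lungs pooled before loading. Reporter-positive cells without CD31 were also collected. No library had a replicate. Whole-lung cells came, per the study's text, from more than 1 embryo of each genotype.

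BMP ligands are secreted growth factors that bring together type 1 and type 2 serine/threonine kinase receptors. The active receptors phosphorylate SMAD1, SMAD5 and SMAD9, which enter the nucleus with SMAD4 and switch on targets that include the ID genes, inhibitors of DNA binding, and SMAD6 and SMAD7, which block the pathway in turn. In endothelium the receptor complex of ACVRL1, BMPR2 and the co-receptor endoglin carries the signals of BMP9 and BMP10. Inherited loss of BMPR2 function causes pulmonary arterial hypertension, and loss of ACVRL1 or endoglin causes hereditary hemorrhagic telangiectasia.

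RefSeq promoters of GRCm38.p6, from 250 bases before to 50 after the start, were matched for 6 members, and those of Bmp2, Acvrl1, Smad7 and Id1 were not. They were searched on both strands for GGCGCC, the GC-rich element bound by SMAD1 and SMAD5, for the SMAD palindrome GTCTAGAC, and for the composite BMP response element known from ID and inhibitory SMAD genes. The first stood in 11.9% of all 32851 promoters of that length, the palindrome in 0.213% and the composite element in 0.244%. The windows shown, 150 bases before to 30 after the start, are those of Smad6, with the palindrome starting 4 bases before the start, of Bmpr2, with the GC-rich element starting 105 bases before it, of Bmp4, the ligand with the largest fitted difference between the Eln and Gja4 gates, and of Id3, the target with a matched promoter. Capitals mark the motif. They are at chr9:64022030-64022209 (minus strand), chr1:59764129-59764308 (plus strand), chr14:46390640-46390819 (minus strand) and chr4:136143672-136143851 (plus strand). The start is that of the RefSeq table, which for Bmpr2, Bmp6 and Id3 lies inside the gene span of the GENCODE M21 annotation given below for these genes. No member promoter held the composite element, which says only that these letters were not in this window.
Smad6: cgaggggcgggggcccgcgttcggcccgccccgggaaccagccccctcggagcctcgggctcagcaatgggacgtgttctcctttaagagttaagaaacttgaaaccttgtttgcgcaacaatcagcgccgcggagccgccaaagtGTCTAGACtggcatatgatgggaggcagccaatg
Bmpr2: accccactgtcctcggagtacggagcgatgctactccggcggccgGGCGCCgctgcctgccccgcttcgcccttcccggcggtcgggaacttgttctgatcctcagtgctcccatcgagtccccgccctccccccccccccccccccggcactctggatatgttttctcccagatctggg
Bmp4: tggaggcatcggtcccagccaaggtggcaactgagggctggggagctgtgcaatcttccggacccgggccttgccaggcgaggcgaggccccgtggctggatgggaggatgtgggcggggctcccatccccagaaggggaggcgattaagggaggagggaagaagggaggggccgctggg
Id3: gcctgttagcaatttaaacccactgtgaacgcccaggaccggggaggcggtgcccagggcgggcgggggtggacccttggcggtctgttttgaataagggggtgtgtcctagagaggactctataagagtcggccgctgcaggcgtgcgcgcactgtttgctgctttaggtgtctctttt

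The genes lie on 8 chromosomes of the GRCm38 build: Bmpr2 at chr1:59763400-59879014, Eng at chr2:32646595-32682669, Bmp2 at chr2:133552159-133562885, Id1 at chr2:152736251-152737410, Id3 at chr4:136143497-136145755, Smad6 at chr9:63953076-64022059, Bmp6 at chr13:38345107-38500302, Bmp4 at chr14:46383520-46390669, Acvrl1 at chr15:101128522-101145336 and Smad7 at chr18:75367529-75395935. Smad6 and Bmp4 are on the minus strand and the others on the plus strand.

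Endothelial cells (ECs) were cells with at least 2 unique molecular identifiers (UMIs) of Pecam1 and Cdh5 together, which left 210 ECs of the E13.5 library, 9453 of the E15.5 library, 9119 of the sorted E18.5 library, 8259 of the P8 library, 1923 in the whole lung labelled control and 3019 in that labelled null. The libraries held 8845 to 13098 barcodes and 63746333 to 117522172 UMIs. ECs were split by 4 gates read in order: Eln at least 10 UMIs (elastin, high in large arteries), Gja4 at least 2 (connexin 37, arterial), Gpihbp1 at least 2 (general capillary) and Car4 at least 2 (carbonic anhydrase 4, aerocyte capillary). A gate is a limit on 1 gene and not a cell type, and the Gja4 gate in particular held many cells that were also over a capillary limit. Such cells were 24.4%, 41.3% and 79.7% of the Gja4 gate at E15.5, E18.5 and P8, and 65.1% and 61.1% in the whole lungs labelled control and null. At P8 that gate stood at 1011 CPM of Gpihbp1 and 980 CPM of Gja4, against 1301 and 81.2 CPM in the Gpihbp1 gate, so its name stands for the limit alone. The Gja4 gate held 62.0%, 57.2% and 72.8% of ECs in the last 3 sorted libraries, by age, against 25.1% and 40.5% in the whole lungs labelled control and null. Since the Car4 gate came last, it held only Car4 cells under the other limits, 265 of 852 at E18.5 and 223 of 1783 at P8. Levels are summed UMIs of the gene over all UMIs of the same cells, in counts per 1000000 UMIs (CPM), with exact Poisson 95% intervals, which cover counting error only. Per-gene levels were compared between cells and never between genes.

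The labels and the data of the whole lungs were at odds. In ECs, Cxcl12 stood at 4.23 CPM (3.38 to 5.24) in the library labelled control and at 496 CPM (489 to 504) in the library labelled null, and at 720 to 1210 CPM in the sorted libraries. The deposited names of the 2 whole-lung matrices also gave the genotypes the other way round, so these libraries are called here by their labels alone. They shared 140 barcodes, 1.58% of the smaller, while other pairs of libraries shared 20 to 54. Cells of the E13.5 sort were mostly not endothelial, 210 of 12726 kept.

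Of the 3 ligand genes, Bmp4 had the largest fitted difference between the Eln and Gja4 gates. Over the Gpihbp1 gate at E15.5, the Eln gate ratio of Bmp6 was larger, at 204 (69.6 to 994) beside 60.7 (46.1 to 81.4) for Bmp4. Bmp4, which in the lung is best known from the distal epithelium and mesenchyme, stood in the Eln gate at 80.0 CPM (56.0 to 111), 240 CPM (232 to 248), 196 CPM (186 to 207) and 86.7 CPM (77.6 to 96.6) in the sorted libraries from E13.5 to P8, at 74.6 CPM (65.6 to 84.5) in the library labelled control and 97.3 CPM (90.2 to 105) in that labelled null. In the Gja4 gate of the same libraries it stood at 21.1, 4.85, 6.56, 31.0, 7.84 and 7.55 CPM, in the same order. Every library had more Bmp4 in the Eln gate, by a factor from 2.80 (2.48 to 3.16) at P8 to 49.4 (43.8 to 56.0) at E15.5. Cells of the Eln gate that met exactly 1 of the 4 limits were few, 197, 46 and 36 in the sorted E15.5, E18.5 and P8 libraries. In the libraries labelled control and null there were 34 and 50. Among cells that met exactly 1 limit the factor was 2.61 (1.66 to 3.92) at P8. It was 42.0 (35.9 to 49.4) for sorted E15.5 cells and 65.9 (51.4 to 84.8) for sorted E18.5 cells, where it was the highest. In the library labelled control it was 25.4 (10.3 to 81.0), and 12.5 (8.03 to 19.9) in that labelled null. The Gpihbp1 gate, from E15.5 on, held 3.96, 10.6, 22.3, 9.24 and 7.26 CPM. The Car4 gate held 8.76 CPM at E18.5 and 62.4 CPM (49.2 to 78.0) at P8. The Eln gate held 3.89 times (3.23 to 4.70) as much Bmp4 as the Gpihbp1 gate at P8. In P8 cells that met exactly 1 of the 4 limits, the Gja4 gate stood at 52.3 CPM (46.7 to 58.4), the Gpihbp1 gate at 16.4 CPM (13 to 20.4) and the Eln gate at 137 CPM (88.3 to 202).

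Bmp6, a ligand also known for its part in iron balance, had a different order at P8. Over all ECs it stood at 1.11, 9.22, 23.5 and 112 CPM over the 4 ages, and at 6.70 and 8.28 CPM in the whole lungs labelled control and null. In the Eln gate it stood at 4.45, 46.6, 87.1 and 61.1 CPM over the 4 ages, and at 13.9 and 21.6 CPM in the whole lungs. The Gja4 gate held 0 CPM at E13.5 (up to 3.11), then 3.20, 14.7 and 120 CPM, and 6.10 and 5.82 CPM in the whole lungs. The Eln gate was thus the highest in each embryonic library, with overlapping intervals at E13.5, and lower than the Gja4 gate at P8, where the ratio was 0.510 (0.446 to 0.581). The Gpihbp1 gate went from 0.228 CPM at E15.5 to 102 CPM at P8. In cells that met exactly 1 limit the Gja4 over Gpihbp1 ratio at P8 was 0.642 (0.566 to 0.728), in place of 1.18 (1.09 to 1.27). For sorted E18.5 cells it was 0.661 (0.524 to 0.834), in place of 1.09 (0.921 to 1.30). At E15.5 it stayed above 1 (19.0, 6.38 to 92.9), and in both whole lungs its interval held 1.

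Bmp2 was near the counting floor before birth, and at E13.5 it rested on 1 UMI in 210 ECs and on 0 once cells with markers of another class were left out. All ECs held 0.555, 1.44 and 2.23 CPM over the 3 embryonic ages, 25.3 CPM (24.0 to 26.5) at P8, and 2.62 and 3.56 CPM in the whole lungs labelled control and null. At P8 the Gja4 gate held 27.4 CPM, the Gpihbp1 gate 22.2 CPM, the Eln gate 14.4 CPM and the Car4 gate 7.29 CPM. This order changed in P8 cells that met exactly 1 limit, where the Eln gate held 38.2 CPM (15.4 to 78.8, from 7 UMIs), the Gpihbp1 gate 23.8 CPM and the Gja4 gate 12.9 CPM, a Gja4 over Gpihbp1 ratio of 0.542 (0.402 to 0.728) in place of 1.24 (1.05 to 1.46). In the Eln gate of the whole lungs Bmp2 stood at 8.16 and 8.45 CPM, and at 0 CPM (up to 8.47) and 1.91 CPM once cells with markers of another class were left out.

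Acvrl1, the type 1 receptor of endothelium, was lowest in the Eln gate of every library from E18.5 on and highest in the Car4 gate where that gate was large enough. Over all ECs it stood at 203 CPM (183 to 225), 180 CPM (177 to 183), 586 CPM (580 to 592) and 653 CPM (646 to 659) over the 4 ages, and at 406 and 427 CPM in the whole lungs labelled control and null. The Eln gate was below the Gja4 gate in all 6 libraries, at 187 against 227 CPM, 146 against 211, 370 against 599, 396 against 659, 252 against 498 and 275 against 507 CPM, and only at E13.5 did the interval of the ratio reach 1. The Car4 gate was the highest wherever it held 20 cells, at 969 CPM (E18.5), 1075 CPM (P8) and 688 CPM (labelled null), which was 1.56, 1.58 and 1.56 times the Gpihbp1 gate.

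Bmpr2, the type 2 receptor, was higher in every gate at P8 than before birth. All ECs held 106, 78.7, 159 and 461 CPM over the 4 ages and 124 and 125 CPM in the whole lungs labelled control and null. The Eln gate was above the Gja4 gate at E15.5 (109 against 85.0 CPM) and below it at E18.5 (111 against 173 CPM) and P8 (268 against 470 CPM), so its order was not the same over the libraries. The Gpihbp1 gate was the lowest at E15.5, at 40.5 CPM, which the Eln gate exceeded 2.70-fold (2.45 to 2.98). At E18.5 it held 142 CPM and the Car4 gate, the highest, 240 CPM. At P8 the Gpihbp1 gate held 465 CPM and the Car4 gate 587 CPM.

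Eng encodes endoglin, the co-receptor. All ECs held 304, 169, 226 and 432 CPM over the 4 ages and 202 and 203 CPM in the whole lungs labelled control and null. At E15.5 and E18.5 the Eln and Gja4 gates were close to each other, at 190 against 183 CPM and 235 against 230 CPM, and the intervals of both ratios held 1. In cells that met exactly 1 limit the E15.5 ratio was 0.786 (0.692 to 0.891), and the E18.5 interval still held 1. The Eln gate was lower in the other embryonic libraries, with a ratio of 0.794 (0.642 to 0.975) at E13.5, 0.669 (0.598 to 0.747) in the library labelled control and 0.728 (0.680 to 0.779) in that labelled null. In these libraries 46.8%, 77.8% and 70.0% of the Eln gate carried markers of another class, against 21.7% and 11.8% at sorted E15.5 and E18.5. The fitted difference without such cells is given below. At P8 the Eln gate held 286 CPM, against 439, 451 and 441 CPM in the Gja4, Gpihbp1 and Car4 gates, which did not differ beyond their intervals. In P8 cells that met exactly 1 limit the Gja4 gate was below the Gpihbp1 gate, with a ratio of 0.842 (0.795 to 0.892).

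Smad6, the inhibitory SMAD that acts mostly on BMP receptors, was lowest in the Gpihbp1 gate of 4 of the 5 libraries where that gate held 20 cells, the exception being the sorted E18.5 library, where the Car4 gate was at 31.4 CPM and the Gpihbp1 gate at 35.7 CPM. From E15.5 on the Gpihbp1 gate held 9.43, 35.7, 184, 18 and 21.2 CPM, against 59.0, 132, 254, 78.0 and 93.0 CPM in the Gja4 gate. The ratio of Gja4 to Gpihbp1 gate was 6.25 (5.23 to 7.54), 3.71 (3.37 to 4.08) and 1.38 (1.31 to 1.46) over the ages from E15.5, and 4.33 and 4.40 in the whole lungs labelled control and null. The ratio was lowest at P8, where most of the Gja4 gate was also over a capillary limit. In cells that met exactly 1 limit it was 7.52, 4.54 and 1.67 (1.55 to 1.81) over the same ages and 7.65 and 6.82 in the whole lungs, again lowest at P8. In those cells of the library labelled control the Eln over Gpihbp1 ratio was 0.731 (0.311 to 1.47), in place of 2.60 (2.09 to 3.24). The Eln gate was thus the lowest there, with overlapping intervals. In the other libraries from E15.5 on that ratio was above 1, with an interval that held 1 at P8 (1.27, 0.919 to 1.71). All ECs held 65.5, 55.0, 106 and 247 CPM over the 4 ages and 36.7 and 58.1 CPM in the whole lungs.

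Smad7, which blocks both BMP and TGF-beta receptors, was highest in the Eln gate of all 6 libraries. That gate held 209 CPM (169 to 256), 329 CPM (319 to 338), 427 CPM (412 to 442) and 568 CPM (544 to 592) over the 4 ages, and 142 CPM (130 to 156) and 255 CPM (243 to 266) in the whole lungs labelled control and null. The Gja4 gate held 191, 145, 221, 387, 111 and 172 CPM and the Gpihbp1 gate, from E15.5 on, 37.9, 97.8, 284, 52.2 and 69.0 CPM. The intervals of these 3 gates did not overlap in any library from E15.5 on, and at E13.5 those of the Eln and Gja4 gates did. In cells that met exactly 1 limit, a small part of the Eln gate without its Gja4 cells, Eln exceeded Gja4 beyond the interval at E15.5 alone. There the E15.5 ratio was 1.49 (1.35 to 1.64), the E18.5 ratio 0.926 (0.762 to 1.12) and the P8 ratio 1.04 (0.853 to 1.26). In the whole lungs labelled control and null it was 0.523 (0.384 to 0.703) and 0.609 (0.502 to 0.734).

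The targets Id1 and Id3 were lower in the Gpihbp1 gate than in the Gja4 gate of all 5 libraries with at least 20 cells in both. Id1 stood in the Gja4 gate at 355, 440, 694 and 752 CPM over the 4 ages and at 474 and 525 CPM in the whole lungs, and in the Gpihbp1 gate, from E15.5 on, at 155, 376, 635, 200.4 and 216 CPM. The ratio of these gates was 2.84, 1.84 and 1.18 over the ages from E15.5, 2.37 in the library labelled control and 2.43 in that labelled null. In cells that met exactly 1 limit it was 3.16, 2.20, 1.55, 3.17 and 3.32 in the same order. The Eln gate held 236, 381, 604, 877, 285 and 317 CPM of Id1, below the Gja4 gate before birth and above it at P8, where in cells that met exactly 1 limit it was below (ratio 0.790, 0.662 to 0.936). Id3 stood in the Gja4 gate at 1018, 957, 1401, 1554, 1055 and 1071 CPM, in the Eln gate at 929, 1241, 1353, 1975, 641 and 783 CPM, and in the Gpihbp1 gate at 535, 894, 1270.3, 683 and 577 CPM. Id3 was higher in the Eln than in the Gja4 gate of the sorted E15.5 and P8 libraries, lower in both whole lungs, and slightly lower in sorted E18.5 cells (ratio 0.966, 0.946 to 0.987). In P8 cells that met exactly 1 limit its ratio went from 1.27 (1.24 to 1.30) to 0.966 (0.862 to 1.08). The Car4 gate did not follow the Gpihbp1 gate for both targets. Its Id1 level was above that of the Gpihbp1 gate in the sorted E18.5 cells, at 451 CPM (ratio 1.20, 1.10 to 1.30), and at P8, at 826 CPM (1.30, 1.21 to 1.39), and at 213 CPM in the library labelled null the ratio's interval held 1. Its Id3 level was the lowest of the 4 gates in sorted E18.5 cells, at 766 CPM (0.856 of the Gpihbp1 gate, 0.803 to 0.912), and in the library labelled null, at 330 CPM (0.572, 0.468 to 0.693), and at P8 it was 1384 CPM (1.09, 1.03 to 1.15).

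**Figure D1:**
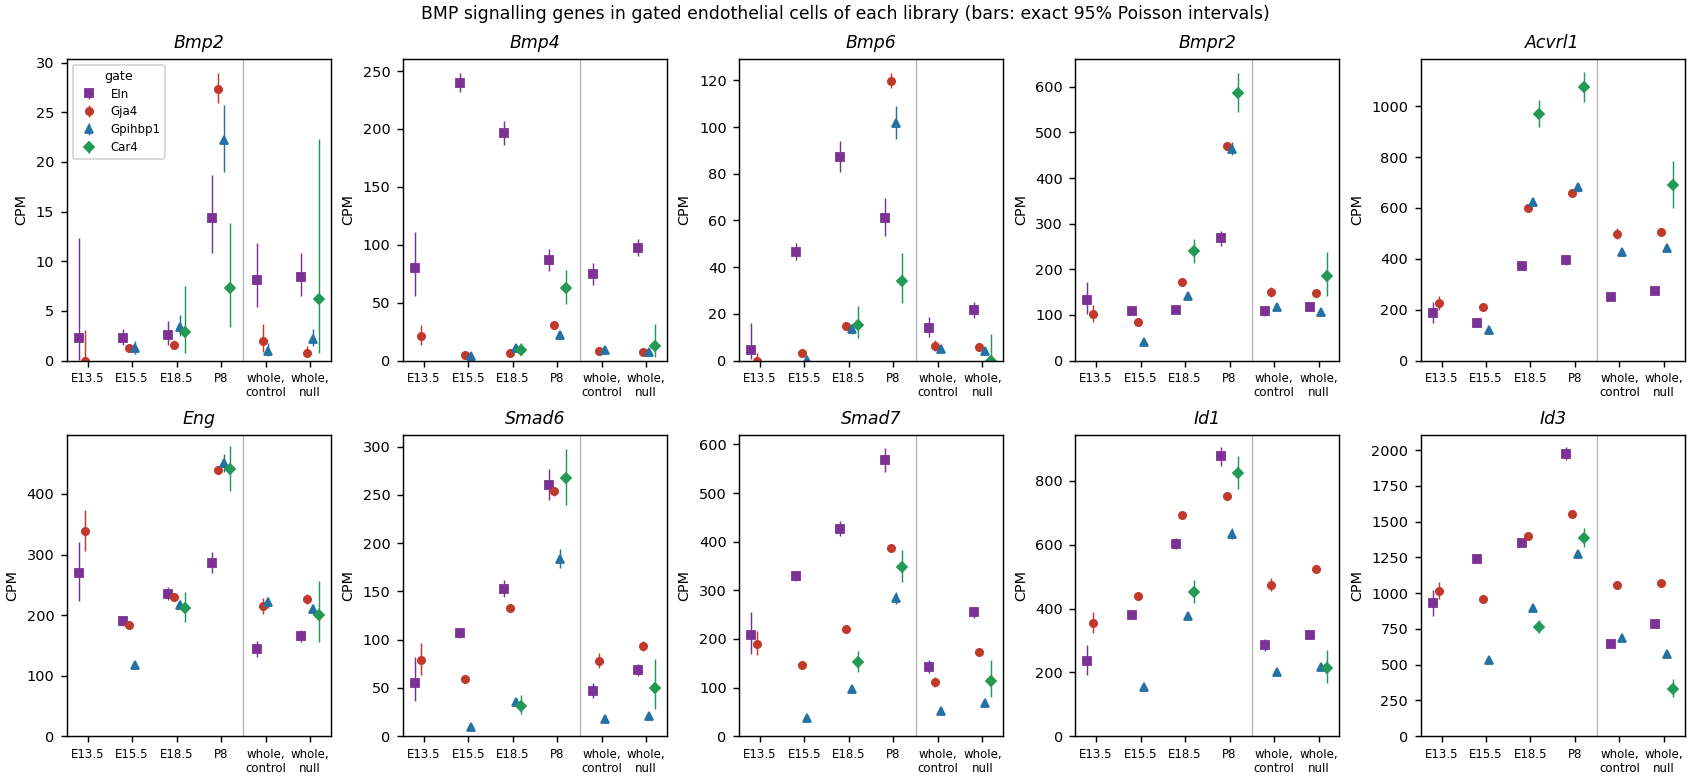
Each panel plots 1 gene, with the level in CPM on the y axis against library on the x axis (sorted libraries left of the grey line, whole lungs by label right of it), points for the Eln, Gja4, Gpihbp1 and Car4 gates of at least 20 cells and bars for exact 95% Poisson intervals. Bmp4 stood out in the Eln gate, with 240 CPM at E15.5, Acvrl1 in the Car4 gate, with 969 CPM at E18.5, and the Gpihbp1 gate was below the Gja4 gate for Smad6, Smad7, Id1 and Id3 before birth.

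Gates were compared within libraries with edgeR's quasi-likelihood test on 20 sums of library and gate, with the library as a block, over 13489 genes. The libraries differ in age and preparation, so the spread that the p-values measure is that of the gate differences between such libraries. A shift shared by all gates of a library is taken up by the block. The Eln and Gja4 gates are called arterial and the Gpihbp1 and Car4 gates capillary after the gate genes, although at P8 the Gja4 gate, with 72.8% of ECs, held general capillary markers at 3230 CPM, against 3343 CPM in the Gpihbp1 gate. Between these sides, which met in 5 libraries, 5 members were higher and 1 lower on the arterial side, where 15.3% of all genes were higher and 11.9% lower. Both inhibitory SMADs and both targets were among those higher, Smad7 by 1.17 ± 0.164 (log2 ± SE, adjusted p = 1.23e-04), Smad6 by 1.40 ± 0.300 (adjusted p = 0.00358), Id3 by 0.71 ± 0.135 (adjusted p = 0.00113) and Id1 by 0.67 ± 0.125 (adjusted p = 9.37e-04). Bmp4 was higher by 1.42 ± 0.467 (adjusted p = 0.0386), a call that ended without the E15.5 (adjusted p = 0.0511), E18.5 (0.215), labelled control (0.0508) or labelled null (0.111) library. The call of Smad6 ended without the E18.5 library (log2 difference 1.11, adjusted p = 0.0661). Acvrl1 was the member that was lower, by a log2 difference of -0.57 ± 0.0901 (adjusted p = 2.27e-04). The 4 gates had equal weight in this contrast, so the low Eln and high Car4 gates entered fully. The Gja4 over Gpihbp1 ratio of Acvrl1 was 1.77 (1.68 to 1.87), 0.962 (0.938 to 0.986) and 0.968 (0.940 to 0.996) at E15.5, E18.5 and P8. In the library labelled control it was 1.17 (1.11 to 1.23), so arterial gates were not lower throughout. Bmp6 (1.66 ± 0.617, adjusted p = 0.0626), Bmp2 (0.71, adjusted p = 0.382), Bmpr2 (-0.19, adjusted p = 0.409) and Eng (-0.04, adjusted p = 0.813) did not pass. The call of Id1 ended in cells that met exactly 1 of the 4 limits (0.46, adjusted p = 0.168). In those cells its Gja4 over Gpihbp1 ratio was 1.55 to 3.32 by library, and its Eln over Gja4 ratio 0.153 to 0.790. Bmpr2 passed the test without the E15.5 library (-0.35, adjusted p = 0.0246). The median over the members was 0.71, beside 0.056 over all genes. Cycling and erythroid markers moved with this contrast. In the Gpihbp1 gate of the 5 libraries the summed cycling markers stood at 526 to 1331 CPM, against 203 to 599 CPM in the Gja4 gate, and the erythroid markers at 419 to 2563 CPM, against 32 to 949 CPM, both higher in the Gpihbp1 gate of every library. The part of these cells in the differences was not tested.

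Within the arterial side, the Eln and Gja4 gates met in all 6 libraries. There 3 members were higher in the Eln gate and 3 lower, against 15% and 14.5% of all genes, so the members' calls went in both directions. Bmp4 was higher by 3.72 ± 0.523 (adjusted p = 1.78e-04), the largest difference of any member in the 3 contrasts, Bmp6 by 1.98 ± 0.641 (adjusted p = 0.0332) and Smad7 by 0.58 ± 0.180 (adjusted p = 0.0259). Acvrl1 differed by -0.78 ± 0.106 (adjusted p = 6.66e-05), Id1 by -0.47 ± 0.142 (adjusted p = 0.0204) and Eng by -0.39 ± 0.118 (adjusted p = 0.0220). The median over the members was -0.14, beside -0.026 over all genes. Bmp2 (0.99, adjusted p = 0.168), Bmpr2 (-0.34, adjusted p = 0.183), Smad6 (-0.10, adjusted p = 0.867) and Id3 (-0.19, adjusted p = 0.384) did not pass.

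Markers of other cells moved with the Eln gate. At least 3 UMIs of another class's markers were in 46.8%, 21.7%, 11.8% and 6.78% of its cells over the 4 ages, and in 77.8% and 70.0% in the whole lungs labelled control and null, against 0.166% to 16.1% of the Gja4 gate. The summed level of the mesenchymal markers in the Eln gate was 544 to 4775 CPM, against 22 to 728 CPM in the Gja4 gate. With such cells left out, Bmp4 (log2 difference 4.22), Bmp6 (2.49), Smad7 (1.11) and Acvrl1 (-0.57) kept their calls, while Eng (-0.04) and Id1 (0.06, the other direction) did not. Smad7 then stood in the Eln gate at 278 CPM in the library labelled control (44 cells left of 198) and 538 CPM in that labelled null (122 of 406). The calls of Bmp6 and Smad7 in this contrast also ended in the 4 sorted libraries alone (adjusted p = 0.159 and 0.110). The call of Bmp6 ended without the E15.5, E18.5, labelled control or labelled null library, that of Smad7 without E18.5 or labelled null, that of Id1 without E13.5, labelled control or labelled null, and that of Eng without E13.5, P8, labelled control or labelled null. With cells that met exactly 1 of the 4 limits, Smad7 stood at -0.21, the other direction. Without E15.5 Bmpr2 passed the test, at -0.47 (adjusted p = 0.0165).

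Within the capillary side, the Car4 and Gpihbp1 gates met in 3 libraries. Acvrl1 was higher in the Car4 gate by 0.71 ± 0.136 (adjusted p = 0.00353) and was the only one of the 10 members called, where 4.48% of all genes were higher and 7.82% lower. Bmpr2 differed by 0.74 ± 0.238 (adjusted p = 0.0588), and by 0.64 (adjusted p = 0.0195) without the E15.5 library. The Car4 gate of that library held 3 cells, under the 20 needed for a sum. Smad7 (0.61, adjusted p = 0.127), Smad6 (0.71, adjusted p = 0.360) and Bmp4 (1.02, adjusted p = 0.477) had positive differences that did not pass, and Eng stood at -0.03 (adjusted p = 0.942). The summed level of the aerocyte markers in the Car4 gate was 5886 CPM at E18.5, 8512 CPM at P8 and 3847 CPM in the library labelled null.

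**Figure D2:**
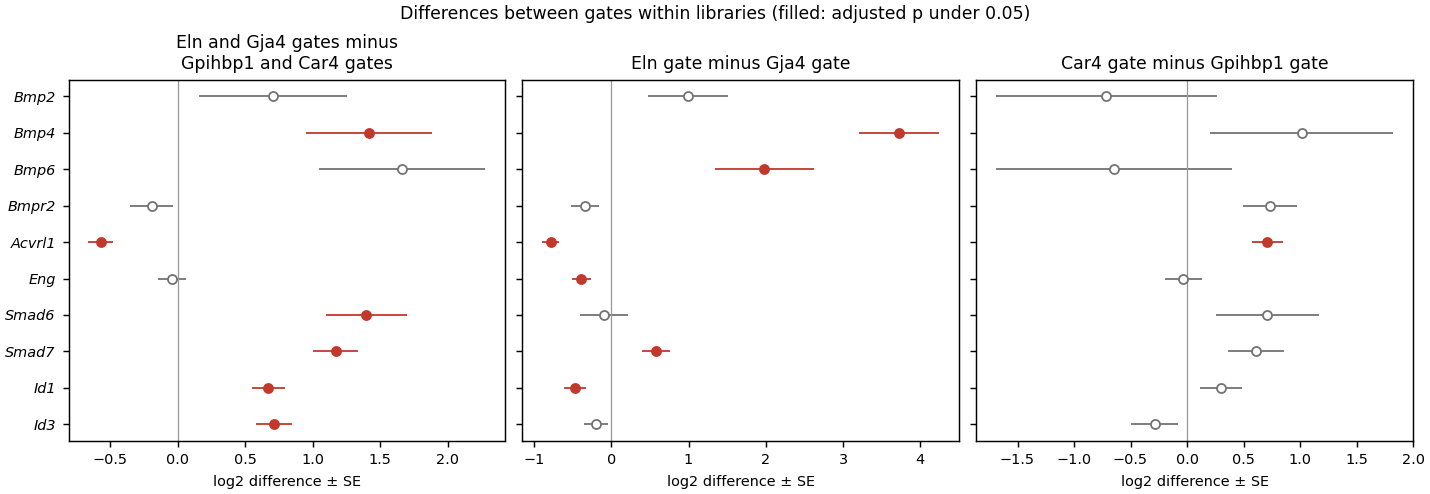
The 3 panels plot, for each member, the log2 difference between gates on the x axis with its SE as a bar, and filled points have an adjusted p under 0.05. Bmp4 lay at 1.42 and 3.72 in the first and second panels, and Acvrl1 was called in all 3, at -0.57, -0.78 and 0.71.

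With 1 library at each age, differences over time are differences between libraries and carry no test. Members were counted past 1.5-fold among those of at least 20 CPM on either side, beside the same share of all such genes. From E13.5 to E15.5, 0 of 8 members were past it upward and 1 downward, Eng, with a ratio of 0.555 (0.510 to 0.606), where 8.09% of genes were higher and 10.9% lower. The Eln gate went the other way, with 5 of 9 members higher (13.9% of genes) and 0 lower (16.2%). These were Bmp6 (10.5, 2.89 to 86.8), Bmp4 (3, 2.16 to 4.29), Smad6 (1.93, 1.30 to 2.98), Id1 (1.62, 1.33 to 1.98) and Smad7 (1.57, 1.28 to 1.95). That gate held 47 cells at E13.5, of which 46.8% carried markers of another class. In the Gja4 gate 0 of 8 members were higher (8.62%) and 2 lower (12.6%), Bmp4 (0.230, 0.153 to 0.362) and Eng (0.540, 0.489 to 0.598). These 2 libraries were also counted with different versions of CellRanger. From E15.5 to E18.5, 5 of 9 members were higher and 0 lower, where 22.2% of genes were higher and 11% lower. Acvrl1 was 3.25 times as high (3.20 to 3.31), Bmp6 2.55 (2.34 to 2.77), Bmpr2 2.02 (1.96 to 2.08), Smad6 1.93 (1.86 to 2) and Id1 1.62 (1.60 to 1.65). By gate, 3 of 9 members were higher in the Eln gate (13.2% of genes), 5 of 7 in the Gja4 gate (22.6%) and 7 of 7 in the Gpihbp1 gate (30.8%), the order in which the share of all genes rose as well. In the Gpihbp1 gate Acvrl1 was 5.22 times as high (4.95 to 5.52), Smad6 3.79 (3.1 to 4.65) and Bmpr2 3.51 (3.18 to 3.87), while in the Eln gate Bmpr2 was 1.02 times as high (0.933 to 1.11).

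From E18.5 to P8, 6 of 10 members were higher and 0 lower over all ECs, where 10.5% of genes were higher and 7.98% lower. Bmp2 was 11.3 times as high (9.49 to 13.6), Bmp6 4.76 (4.49 to 5.04), Bmpr2 2.90 (2.83 to 2.96), Smad6 2.32 (2.25 to 2.39), Eng 1.91 (1.87 to 1.95) and Smad7 1.83 (1.79 to 1.87). Acvrl1, the member with the highest ratio over the step before, was at 1.11 times (1.10 to 1.13). In the Eln gate 2 of 9 members were higher (11.4% of genes) and 1 lower (9.23%). The member that was lower was Bmp4, at 0.442 times (0.391 to 0.498), while it was 4.72 times as high (4.10 to 5.45) in the Gja4 gate, 2.09 times (1.67 to 2.63) in the Gpihbp1 gate and 7.13 times (3.85 to 14.4) in the Car4 gate. The Gja4 gate had 7 of 10 members higher (11.7% of genes) and the Gpihbp1 gate 8 of 10 (11.8%). The median log2 ratio over the members was 0.70 for E18.5 against E15.5 and 0.90 for P8 against E18.5, beside 0.18 and 0.06 over all genes. These 2 steps share the E18.5 library.

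The summed level of 9 dissociation stress genes also differed along the time course, at 1108, 1415, 5820 and 11477 CPM over the 4 ages in all ECs, and at 3780 and 3958 CPM in the whole lungs labelled control and null. Its part in the differences over time was not tested. By library it was 1471 to 16247 CPM in the Eln gate and 992 to 11392 CPM in the Gja4 gate.

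In the whole lungs, 2 of 8 members were past 1.5-fold higher over all ECs in the library labelled null than in that labelled control, and 0 lower, where 1.16% of genes were higher and 1.65% lower. Since the Cxcl12 levels go against these labels, no direction by genotype is drawn from them. The members were both inhibitory SMADs, Smad7 with a ratio of 1.79 (1.69 to 1.89) and Smad6 with a ratio of 1.58 (1.45 to 1.72). With SoupX-adjusted counts, which take out an estimate of free RNA, the log2 ratio of Smad7 was 0.95 in place of 0.84 and that of Smad6 0.44 in place of 0.65, below 1.5-fold. Id1 had a ratio of 1.28 (1.24 to 1.32), Bmpr2 of 1.00 (0.956 to 1.06) and Eng of 1.01 (0.967 to 1.05).

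The share of ECs in the Gja4 gate, where both SMADs are high, was 25.1% in the library labelled control and 40.5% in that labelled null. Within gates Smad6 had ratios of 1.47 (1.22 to 1.77) in the Eln, 1.19 (1.06 to 1.35) in the Gja4 and 1.18 (0.972 to 1.42) in the Gpihbp1 gate. Smad7 had ratios of 1.79 (1.62 to 1.98), 1.56 (1.41 to 1.72) and 1.32 (1.19 to 1.48) in the same gates, so it was higher in each of them in the library labelled null. In the Eln gate Bmp6 also passed 1.5-fold, at 1.56 (1.11 to 2.21), which made 2 of 9 members higher where 2.74% of genes were. The Gja4 gate had 1 of 7 members higher (0.727% of genes) and the Gpihbp1 gate 0 of 7 (0.682%).

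**Figure D3:**
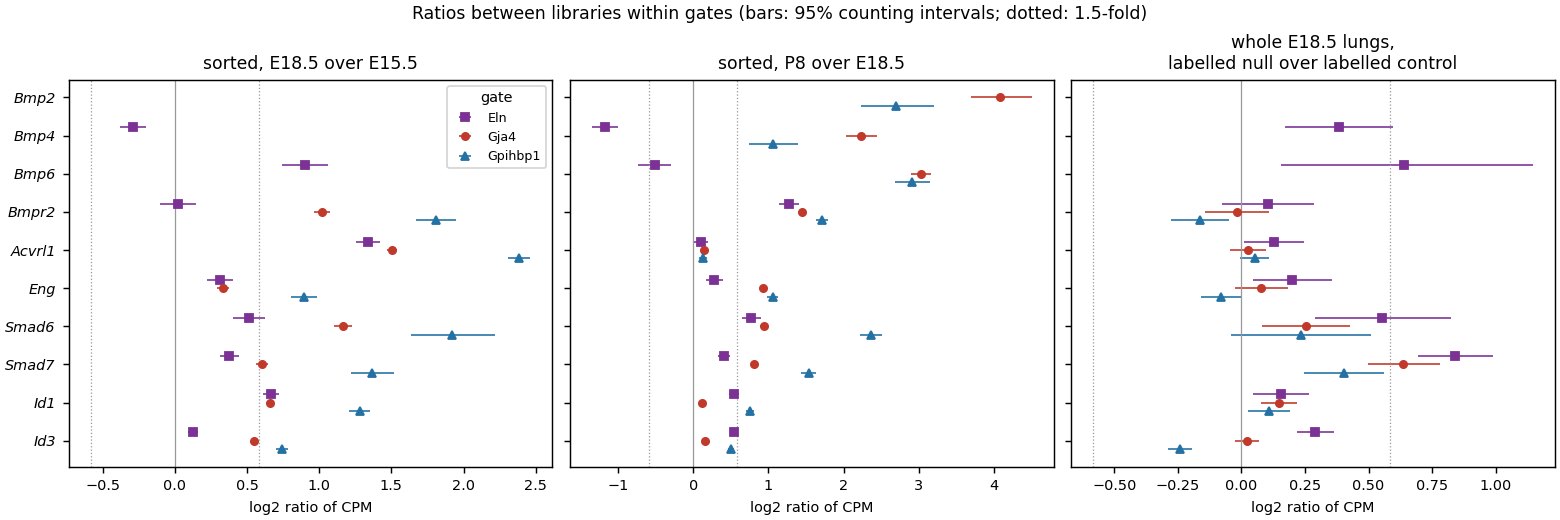
The panels plot the log2 ratio of CPM between libraries on the x axis for each member, with points for the Eln, Gja4 and Gpihbp1 gates where 1 side reached 20 CPM, bars for 95% counting intervals and dotted lines at 1.5-fold. Bmp4 at P8 against E18.5 lay on the left in the Eln gate (ratio 0.442) and on the right in the Gja4 gate (4.72), and Smad7 lay to the right in all gates of the whole lungs.

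The whole lungs also show which other cells held these transcripts. Cells were clustered without the members and pathway genes and classed from broad markers as endothelial (1732 and 2716 cells in the libraries labelled control and null), mesenchymal (4038 and 4773), epithelial (737 and 532) and immune (799 and 882). Clusters of mixed markers (142 and 164 cells) were left out of the order of classes, although Bmp2 stood there at 21.8 and 30.1 CPM, above the mesenchymal class, and Id3 at 896 CPM in the library labelled null, above the endothelial class. Among the 4 named classes, 6 of the 10 members were highest in the endothelial class of both libraries (Bmpr2, Acvrl1, Eng, Smad6, Id1 and Id3), the 3 ligands were highest in the mesenchymal class of both, and Smad7 differed. Clusters and levels come from the same cells, so these orders carry no test. The share of all genes highest in each class was not counted, so the counts only describe the members. The same classes were highest with SoupX-adjusted counts. The clusters were themselves formed and named from adjusted counts, so that comparison bears on the levels and not on the classes.

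The endothelial class held less of each ligand than the mesenchymal class. Bmp4 stood there at 16.6 and 21.4 CPM in the libraries labelled control and null, against 147 and 135 CPM in the mesenchymal and 59.3 and 57.4 CPM in the epithelial class. Myofibroblast-like clusters held 197 and 155 CPM of it. Bmp2 stood at 2.11 and 1.65 CPM in endothelial, 17.5 and 12.8 CPM in mesenchymal and 12.3 and 11.7 CPM in immune cells, with 46.0 and 39.0 CPM in macrophage-like clusters. Bmp6 stood at 7.41 and 9.28 CPM in endothelial and 12.1 and 12.5 CPM in mesenchymal cells, where the intervals overlapped in neither library, and at 1.25 and 0.776 CPM in epithelial and 2.14 and 1.67 CPM in immune cells, so the endothelial class was second for this ligand.

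The 3 receptors were highest in the endothelial class of both libraries. Acvrl1 stood at 469 and 481 CPM in the endothelial class, against 80.6 and 72.3 CPM in mesenchymal, 71.2 and 66.8 CPM in immune and 18.5 and 16.7 CPM in epithelial cells. Eng stood at 230 and 225 CPM in endothelial, 78.7 and 63.6 CPM in mesenchymal and 9.30 and 11.4 CPM in epithelial cells. SoupX adjustment took Acvrl1 to 25 and 41.2 CPM in mesenchymal and 19.3 and 34.6 CPM in immune cells. In epithelial cells both genes were at 0 after it in both libraries, so their unadjusted levels there are at the level of free RNA by that estimate. Bmpr2 was spread more widely, with 135 and 129 CPM in endothelial, 81.6 and 76.5 CPM in mesenchymal, 61.8 and 69.2 CPM in immune and 40.1 and 37.8 CPM in epithelial cells.

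Smad7 was the member whose leading class depended on the library. It stood at 84.1 CPM (79.6 to 88.8) in endothelial and 174 CPM (169 to 179) in mesenchymal cells of the library labelled control, and at 152 CPM (148 to 157) and 152 CPM (148 to 155) in those of the library labelled null, where the classes did not differ beyond their intervals. Smad6 stood at 40.2 and 63.5 CPM in endothelial cells and at 9.86 to 19.3 CPM in the other classes. Between the libraries, 2 of 8 members of the endothelial class were past 1.5-fold higher in the library labelled null (1.03% of genes) and 0 lower (0.953%), Smad6 at 1.58 and Smad7 at 1.81 times. None of 7 members of the mesenchymal class was past it (1.98% of genes higher and 1.18% lower), none of 5 of the epithelial class (1.55% and 0.725%) and none of 7 of the immune class (1.96% and 0.565%). SoupX-adjusted counts changed this. The endothelial class then had Smad7 alone past 1.5-fold, with Smad6 at 53.8 and 71.5 CPM in the libraries labelled control and null. The mesenchymal class had Acvrl1 higher, at 25 and 41.2 CPM, and Bmp2 lower, at 25.7 and 14.4 CPM. The immune class had 3 of 6 members higher in the library labelled null, Acvrl1 (19.3 and 34.6 CPM), Id1 (26.9 and 89.2 CPM) and Id3 (2.55 and 46.3 CPM). Unadjusted, these stood there at 71.2 and 66.8, 87.1 and 108, and 116 and 107 CPM. The adjustment kept 60.0% of UMIs in the library labelled control and 81.5% in that labelled null, so the adjusted differences depend on the amount taken out. With adjusted counts 7.66%, 6.90% and 13.1% of all genes were higher in these 3 classes, and 5.58% were lower in the mesenchymal class. In the epithelial class 0 of 5 members were past it with adjusted counts, where 14.7% of genes were higher. Id1 was high outside the endothelium as well, with 253 and 218 CPM in epithelial cells, 411 and 366 CPM in AT1-like clusters, and 299 and 388 CPM in the endothelial class. Id3 stood at 843 and 864 CPM in endothelial, 609 and 592 CPM in mesenchymal and 292 and 253 CPM in epithelial cells.

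**Figure D4:**
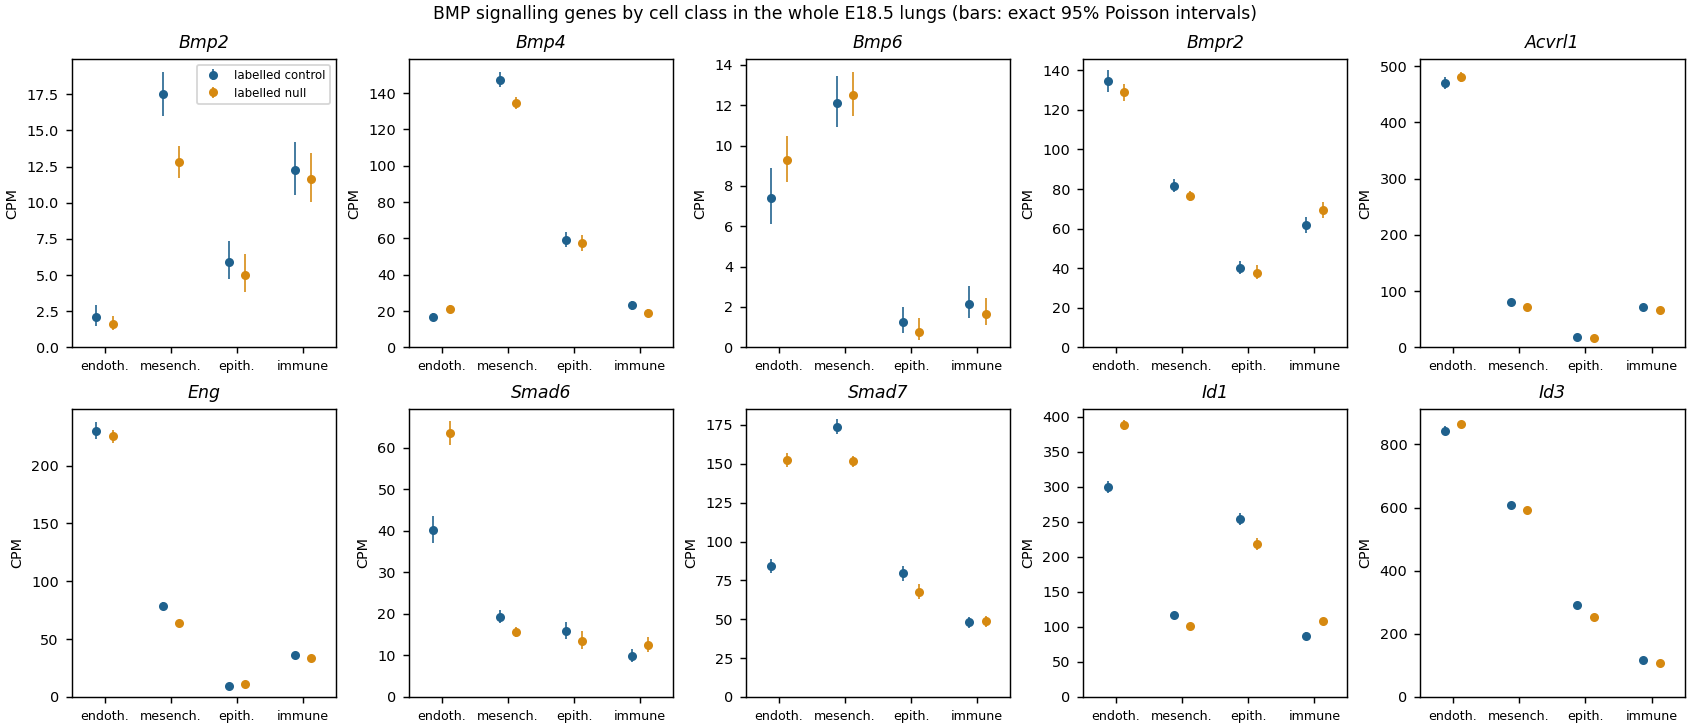
Each panel plots 1 member, with its level in CPM on the y axis against cell class on the x axis, points for the whole lungs by label and bars for exact 95% Poisson intervals. Of these 4 classes the ligands were highest in the mesenchymal, Acvrl1 and Eng in the endothelial, and the endothelial points of Smad7 were apart, at 84.1 and 152 CPM.

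Beside the members, 58 other genes of the pathway and of pulmonary arterial hypertension were measured, and 48 passed the filter on low counts. Between the arterial and capillary gates 21 of them were higher and 5 lower on the arterial side (15.3% and 11.9% of all genes). Of 8 targets tested 6 were higher, and of 16 extracellular modulators 7 were higher and 1 lower. Among those whose mean reached 20 CPM, the highest differences were those of Htra1, a secreted protease (log2 difference 4.64), Atp13a3, a polyamine transporter (3.21), Msx1, a homeobox factor (2.56) and Id2 (1.99). The lowest were those of Kdr, the VEGF receptor (-1.71), Bambi, a decoy receptor (-1.32), and the signal carriers Smad1 (-0.69) and Smad5 (-0.54). Between the Eln and Gja4 gates 24 were higher, 11 of them extracellular modulators, and 7 lower (15% and 14.5% of all genes). Htra1 (3.76), Id2 (1.16), Fstl1 (1.12) and Skil (0.87) led the first, and Kdr (-1.19), Tmem100 (-1.10), Aqp1 (-0.86) and Sox17 (-0.76) the second. The mesenchymal markers that moved with the Eln gate are given above, and Htra1 was among the leading genes of myofibroblast-like clusters in both whole lungs. With cells of another class left out, 18 of 41 tested were higher and 6 lower (14.4% and 14.1% of all genes), Htra1 stood at 4.28 and Fstl1 at 1.47, and 7 of 12 extracellular modulators were higher. Tmem100 (-0.63), Aqp1 (-0.41) and Sox17 (-0.22) then did not pass. Between the Car4 and Gpihbp1 gates 5 were higher and 5 lower (4.48% and 7.82%), with Kdr (1.23), Aqp1 (0.69), Bambi (0.63) and Smurf2 (0.63) higher, and Crim1 (-2.09), Hey1 (-1.94), Id2 (-1.10) and Smad1 (-0.68) lower. With cells of another class left out 7 of 41 were higher and 3 lower (6.26% and 7.37% of all genes), and Bambi (adjusted p = 0.0812, edgeR) and Smad1 (0.0847) did not pass. The arterial against capillary counts were then 19 higher and 8 lower (16.4% and 15.7%), and the 8 genes named for it passed.

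Over time, 9 of 27 such genes were past 1.5-fold higher and 1 lower from E15.5 to E18.5 (22.2% and 11% of all genes). The highest ratios were those of Gata2 (3.07), Hey1 (2.63), Tmem100 (2.51) and Atoh8 (2.29), and the gene that was lower was Htra1 (0.512). From E18.5 to P8, 6 of 26 were higher and 5 lower (10.5% and 7.98%). Tmem100, an endothelial membrane protein induced by BMP9 and BMP10, was 4.64 times as high, Skil 2.72, Smurf2 2.32 and Aqp1 2.04. Atoh8, a target of the same receptors, was at 0.139 times, Bambi at 0.511, Cav1 at 0.515 and Smurf1 at 0.543. From E13.5 to E15.5, 3 of 26 were higher and 4 lower (8.09% and 10.9%), near the shares of all genes. Between the whole lungs 3 of 25 were higher in the library labelled null, Htra1 (2.46), Tmem100 (1.68) and Sox17 (1.51), and 0 lower (1.16% and 1.65%).

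The genes most like each member over the 20 sums of library and gate were named by Pearson's r of log2 (CPM + 0.5) among 8678 genes. The sums share libraries, and the highest of so many coefficients is high by its choice, so they are a description. Smad6 and Smad7 were most like the same gene, Rassf9 (r = 0.93 and 0.95), and Smad7 was next for Smad6 (0.93), while Paxx was next for Smad7 (0.93). Id1 was most like Klf2, a flow-responsive factor of endothelium (0.91), and Parvb (0.90), and Id3 most like Sox13 (0.93) and Wfdc1 (0.90). Bmp4 was most like Ikbip (0.92) and Pdgfa (0.92), Bmp6 most like Rnf11 (0.91) and Slc50a1 (0.89), and Bmp2 most like Enc1 (0.89) and Mcl1 (0.88). Among the receptors, Bmpr2 was most like Wwc2 and Smap1 (both 0.97), Acvrl1 most like Bag5 (0.97) and Tmcc2 (0.96), and Eng most like Pon2 (0.91) and Gm26526 (0.90). Between members the coefficient ranged from -0.21 for Bmp4 and Acvrl1 to 0.93 for Smad6 and Smad7.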

How the data were processed

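Single cells of 6 mouse lung libraries were analyzed, 4 sorted and 2 of whole lung, 1 per condition, grouped by their labels. UMI counts of 3′ libraries were made by the authors with CellRanger against mm10 and deposited as raw counts. Per the file headers, version 3.0.2 was used for E15.5, sorted E18.5 and P8 and version 3.1.0 otherwise. Expected counts, adjusted by the authors with SoupX for free RNA, were deposited for whole lungs alone. They kept 60.0% and 81.5% of UMIs (labelled control and null). In the whole lungs the barcode filter, the clusters and the cluster names were read from these adjusted counts. Levels, gates and tests used raw counts, with adjusted counts as alternatives. Libraries held 63746333 to 117522172 UMIs, and this depth sets the counting intervals.

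Barcodes were kept (7448 to 12726) at 700 genes or more and a mitochondrial share of 0.5% to 10%. No doublet caller was run; an alternative left out ECs with at least 3 UMIs of another class's markers. Sums of at least 20 cells were fitted with edgeR 4.0.16 (glmQLFit and glmQLFTest, TMM, library as a block, 11 residual degrees of freedom), with Benjamini-Hochberg adjustment over 13489 genes and without the 6 gate genes. On simulated data for the arterial and capillary gates with 13050 genes, 85.3% of genes changed 1.5-fold and 100.0% of those changed 2-fold were recovered. The changed genes had a mean of at least 20 CPM, the same fold in every library and the trended dispersion. These shares therefore do not hold for lower genes such as Bmp2, or for genes whose gate difference varied between libraries, such as Bmp4 and Bmp6. Ratios between libraries were counted past 1.5-fold at 20 CPM or more, and medians used log2 (CPM + 0.5). Whole-lung cells were clustered with leidenalg 0.10.2 on Pearson residuals (20 components, resolution 0.8), and limits for naming clusters were set after the clusters had been seen. The members and lists were chosen with earlier results of these data known. Named were all members, at most 4 called pathway genes in each direction at 20 CPM or more, and the 2 genes nearest each member.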

Additional observations from a re-analysis of the deposited data

Results flagged for a closer look

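Of the 10 members, 3 had an Eln over Gja4 gate ratio at P8 with a sign opposite to that in all 5 embryonic libraries. This difference was not tested. The share of all genes with such a change of sign was not counted, so the count is not read as a trait of the members. For Bmp6 the log2 ratio was -0.97 at P8, against 3.31, 3.67, 2.53, 1.13 and 1.81 in the E13.5, E15.5, E18.5, labelled control and labelled null libraries. For Bmp2 it was -0.91 at P8, against 2.44, 0.67, 0.53, 1.81 and 2.80, with under 10 CPM in each embryonic gate. For Id1 it was 0.22 at P8, against -0.59, -0.21, -0.20, -0.73 and -0.73. The E13.5 ratios of Bmp2 and Bmp6 rest on 0 UMIs in the Gja4 gate and on the 0.5 CPM added, and are no measure of size. In cells that met exactly 1 of the 4 limits the Eln over Gja4 gate ratio at P8 was 0.445 (0.163 to 0.977) for Bmp6, while Bmp2 (2.96, 1.15 to 6.39) and Id1 (0.790, 0.662 to 0.936) had the sign of the embryonic ratios above. These P8 ratios rest on 36 cells in the Eln gate. Without cells with markers of another class, the sign held in all 5 embryonic libraries for Bmp6. For Id1 it turned in the whole lungs, with 700 CPM in the Eln and 501 CPM in the Gja4 gate of the library labelled control and 682 and 554 CPM in that labelled null. For Bmp2 it turned at E18.5 (1.29 and 1.60 CPM) and in the library labelled control (0 and 0.514 CPM), and both gates were at 0 at E13.5.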

How the results depend on the processing

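Of 480 log2 differences between gates under the alternatives, 397 kept their direction and side of the threshold, 46 lost the call, 9 gained it and 28 changed sign. Of 270 log2 ratios between libraries 63 moved beyond their counting interval, and 0 of those reported past 1.5-fold changed sign. Sign changes of smaller ratios between libraries were not counted. Of 84 counts and class orders, 70 stayed within 1.5 times of the reported value. The gates of a library were paired through the library block, while conditions, with 1 library each and no replicate numbers, could not be paired. Without the library block 1 member was called between arterial and capillary gates (6 with it), 1 between the Eln and Gja4 gates (6) and 0 between the Car4 and Gpihbp1 gates (1). The shares of all genes fell as well, to 8.83% higher and 6.03% lower, 3.58% and 1.42%, and 0.497% and 1.76%. Between the Eln and Gja4 gates 2 were called in the sorted libraries alone and 3 there without cells of another class, and 2 to 6 when a library was left out (3 without labelled control, 2 without labelled null). Between the Car4 and Gpihbp1 gates 2 were called with DESeq2 and with exactly 1 limit met, and 1 to 2 when a library was left out (2 without E15.5). With SoupX-adjusted counts and limits 1 member was past 1.5-fold between the whole lungs, and with adjusted counts of the class, a setting chosen after seeing the data, 1 in the endothelial class (2 before), 2 in the mesenchymal (0) and 3 in the immune class (0).

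Differences that changed sign were, for arterial against capillary gates, Bmp2 with gates read on 3000 UMIs (-0.18), and Eng in the sorted libraries (0.0290), without cells of another class (0.0736), with both (0.0694) and without single libraries (-0.15 to 0.0252). For the Eln against the Gja4 gate they were Bmp2 without cells of another class (-0.21) and also sorted (-0.34), Smad6 sorted (0.22), without cells of another class (0.54), with both (0.45) and without single libraries (-0.30 to 0.0600), Id1 without cells of another class (0.0630), Id3 sorted (0.0721), without cells of another class (0.11) and with both (0.10), and Smad7 with exactly 1 limit met (-0.21). For the Car4 against the Gpihbp1 gate they were Bmp2 on 3000 UMIs (0.0638) and without single libraries (-0.99 to 0.74), Bmp6 without single libraries (-1.12 to 0.27), Id3 sorted (0.0290) and sorted without cells of another class (0.0373), and Eng with DESeq2 (0.0335), sorted (0.10), without the block (0.17), with exactly 1 limit met (0.00899), without cells of another class (0.0404), with both (0.12) and without single libraries (-0.0900 to 0.0375). The cause was not tested. Depth limits Bmp2, with 0 to 73 UMIs in the Eln and Gja4 gates of the embryonic libraries, and Bmp6 at E13.5, with 2 UMIs in the Eln and 0 in the Gja4 gate.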
